A study of Mus musculus with 2 samples.

Results

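Described here are 7 genes for membrane carriers of glucose, monocarboxylates, thyroid hormones and other organic anions in retinal endothelial cells: *Slc2a1*, *Slc16a1*, *Slc16a4*, *Slco1a4*, *Slco1c1*, *Slco2b1* and *Slc22a8*. They are 7 of the 19813 genes with a row in the count tables of both libraries, and were taken by symbol. The genes were chosen by measured values of these data, namely their levels and shares of cells by age and by cluster, with *Slco1a4* known to be far higher at the later age. Contrasts between ages and between clusters are therefore given as descriptions without a test. All 7 genes also passed the minimum of 50 unique molecular identifiers (UMIs, each standing for 1 captured mRNA molecule) over both libraries.

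The cells came from retinas of wild-type C57BL/6 mice at postnatal day 6 (P6) and postnatal day 15 (P15), and were sorted by FACS as CD31+CD45-, a gate for endothelial cells and against leukocytes. Each age was 1 droplet library on the 10x Genomics platform. The number of animals behind each library was not given in the sources used here. With 1 library per age, an effect of age and a difference between these libraries cannot be told apart, and cells of a library are not replicates.

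Endothelial cells of the retina form the inner blood-retina barrier, where tight junctions close the path between cells and solutes cross through carriers in the cell membranes. Carriers of the SLC2 family move hexoses down their gradient, many SLC16 proteins move lactate, pyruvate or ketone bodies together with protons, and SLCO and SLC22 proteins carry organic anions, among them hormones, their conjugates and drugs. In the mouse the retinal vessels grow and acquire barrier properties after birth, a process that depends on Norrin signalling through beta-catenin.

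The P6 library held 13958124 UMIs in 1984 barcodes, with a median of 5543.5 UMIs per barcode (609 to 80815). The P15 library held 11589641 UMIs in 2141 barcodes, with a median of 4616 UMIs (11 to 38977). A cell was kept with 200 to 3500 genes, mitochondrial UMIs of at most 5%, and no UMI of *Cd63*, *Hbb-bt* or *Neurod1*, which is a reading of the study's exclusion criteria. This left 1424 cells at P6 (median depth 4985 UMIs) and 1644 at P15 (median depth 4213.5). No doublet caller was run. As an alternative, leaving out the 9 P6 and 12 P15 kept cells that held *Xist* together with Y-linked UMIs kept all 7 age ratios within their intervals. Cluster names given by the study were available for 1560 P6 cells and for the leading 438 P15 cells only, since the copy of the label list used here was cut there. Sizes of P15 clusters are therefore not those of the study. Unless stated otherwise, cluster values are over all labelled cells, of which 1399 at P6 and 409 at P15 were also among the kept cells. The libraries had 7 barcodes in common, none of them labelled in both. Levels are given as CPM, the UMIs of a gene per 1000000 UMIs of the same cells, and 95% intervals are exact (Poisson for a level, conditional binomial for a ratio, Clopper-Pearson for a share). Where a count was 0, the limit given is what 3 counts of the total would make. Intervals and limits cover counting error only.

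The labelled cell type matched its markers in both libraries. All 10 genes of an endothelial list had UMIs in the kept cells, with a summed level of 10900.4 CPM at P6 and 16751.5 at P15, led by *Cldn5*. Markers of other cell types also differed with age. For pericyte and mural cells, 9 of 10 genes had UMIs at each age and the summed level was 13.7 CPM at P6 and 336 at P15. *Rgs5* led that list at 8.76 and 242 CPM, *Cspg4* was at 0 at P6 and *Tagln* at P15. For Müller glia and astrocytes, 4 of 6 genes at P6 and 5 of 6 at P15 had UMIs, with sums of 369 and 1227 CPM. Nearly all of this was *Glul*, at 366 and 1161, whereas *Pax2* was at 0 at both ages and *Aqp4* at 0 at P6.

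Red blood cell genes, 3 of 5 with UMIs at P6 and 4 of 5 at P15, summed to 22.6 and 173 CPM, led by *Hbb-bs* at 12.9 and 105, with *Hbb-bt* at 0 by the filter. Photoreceptor genes, 7 of 8 at each age, summed to 18.7 and 78.3 CPM, led by *Sag* (7.58) at P6, with *Neurod1* at 0 by the filter. The neuron list, led by *Stmn2*, went the other way, with 57.7 CPM from 5 of 6 genes at P6 and 25.6 from 3 of 6 at P15. *Pou4f2* was at 0 at both ages, and *Tubb3* and *Elavl4* at P15. *Alas2* of the red blood cell list was at 0 at P6 and *Tyrp1* of the pigment epithelium list at P15. Pigment epithelium genes, led by *Best1*, summed to 3.79 CPM from 4 of 6 genes at P6 and to 5.70 from 3 of 6 at P15. Leukocyte genes, led by *Tyrobp*, summed to 2.09 and 4.75 CPM from 5 of 6 genes at each age. Of 4 fibroblast genes, 0 had a UMI at P6 and 2 at P15, with a sum of 1.49 CPM led by *Col1a2*. *Rpe65*, *Lrat*, *Ptprc*, *Col1a1* and *Lum* were at 0 at both ages. For pericyte, mural, red blood cell, photoreceptor, neuron and glial markers other than *Glul*, the carrier ratios without cells holding them are given with the age contrast. For *Glul* and for the lists of pigment epithelium, leukocytes and fibroblasts, their part in the result was not tested.

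The carriers lie on 5 chromosomes (GENCODE M21 annotation of GRCm38). *Slc2a1* (ENSMUSG00000028645) is at chr4:119108711-119137983 on the plus strand, and *Slc16a1* (ENSMUSG00000032902) at chr3:104638668-104658462 and *Slc16a4* (ENSMUSG00000027896) at chr3:107291230-107312115 are both on the plus strand. *Slco1c1* (ENSMUSG00000030235) at chr6:141524368-141570177 on the plus strand and *Slco1a4* (ENSMUSG00000030237) at chr6:141805440-141856199 on the minus strand are 235 kb apart. *Slco2b1* (ENSMUSG00000030737) is at chr7:99657804-99711340 on the minus strand and *Slc22a8* (ENSMUSG00000063796) at chr19:8591254-8611835 on the plus strand. *Slco1a4* and *Slco1c1* sit in a cluster of related genes whose other members were nearly silent here. *Slco1b2* had 1 UMI at each age and *Slco1a5* had 4 UMIs at P6 and 9 at P15 in the kept cells. *Slco1a1* had no row at P6 and 1 UMI at P15. Beside *Slc22a8*, its neighbour *Slc22a6* at 6.2 kb had 3 UMIs at P6 and 0 at P15.

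How well each gene can be told from its relatives was read from shared stretches of 31 bases. For *Slco1a4*, 8.49% of these stretches occur in other genes, 5.75% in *Slco1a5*, and the counts do not show how UMIs from such stretches were assigned. For *Slc22a8* the share was 0.706%, and for the other 5 carriers 0%. *Slc16a1* encloses 2 genes on its own strand within introns, *Gm43581* with 48 UMIs at P6 and 889 at P15, and *Gm43585* with 5 and 180. Their UMIs and those of unspliced *Slc16a1* RNA cannot be told apart, and they are not included in the *Slc16a1* counts. Antisense genes overlap exons of *Slc2a1* (*Gm12868*, 5 and 19 UMIs) and *Slco2b1* (*Gm15635*, 1 and 4, and *Gm34280*, 28 and 27), which are small beside the counts of these carriers.

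Promoter windows are printed for the carriers with the largest age ratios, *Slco1a4*, *Slc16a1* and *Slco1c1*, and for the glucose carrier *Slc2a1*, to show what lies at their gene starts. Sequences are from RefSeq on GRCm38.p6 and run from 250 bases before to 50 bases after the gene start, read along the gene. Capitals mark the letters ACGTG or their reverse complement CACGT, taken here as the core of hypoxia response elements. They overlap where CACGTG is read. The windows are *Slco1a4* chr6:141856171-141856470 (minus strand), *Slc16a1* chr3:104638414-104638713, *Slco1c1* chr6:141524104-141524403 and *Slc2a1* chr4:119108495-119108794 (plus strand).
Slco1a4: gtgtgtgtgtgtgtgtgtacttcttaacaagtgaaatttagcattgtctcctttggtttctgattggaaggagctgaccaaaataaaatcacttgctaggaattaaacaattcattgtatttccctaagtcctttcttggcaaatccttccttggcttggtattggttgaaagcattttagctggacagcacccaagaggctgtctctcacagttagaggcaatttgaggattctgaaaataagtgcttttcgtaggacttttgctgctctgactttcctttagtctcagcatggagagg
Slc16a1: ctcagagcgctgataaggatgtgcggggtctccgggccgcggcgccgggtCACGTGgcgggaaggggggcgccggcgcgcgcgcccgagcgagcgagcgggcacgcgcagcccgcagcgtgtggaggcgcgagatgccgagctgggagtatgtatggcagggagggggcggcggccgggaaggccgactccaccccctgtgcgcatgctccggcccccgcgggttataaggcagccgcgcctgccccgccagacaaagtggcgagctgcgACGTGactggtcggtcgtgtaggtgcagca
Slco1c1: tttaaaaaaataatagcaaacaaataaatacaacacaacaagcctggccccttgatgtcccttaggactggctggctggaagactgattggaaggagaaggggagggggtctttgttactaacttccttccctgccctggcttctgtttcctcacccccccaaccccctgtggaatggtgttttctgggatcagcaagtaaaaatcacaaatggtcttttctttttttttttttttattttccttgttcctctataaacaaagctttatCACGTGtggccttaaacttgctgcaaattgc
Slc2a1: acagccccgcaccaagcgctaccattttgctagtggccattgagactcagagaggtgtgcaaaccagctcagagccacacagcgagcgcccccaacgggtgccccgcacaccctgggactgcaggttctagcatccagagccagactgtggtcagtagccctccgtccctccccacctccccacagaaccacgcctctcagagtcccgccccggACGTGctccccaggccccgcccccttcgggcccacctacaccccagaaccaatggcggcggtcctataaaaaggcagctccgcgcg

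All 7 genes matched a RefSeq entry, with 9 windows among them since *Slco2b1* has 3. The hypoxia core was found on either strand in 3 of the 9 windows and in 19.6% of all 32817 windows. Counted on both strands, *Slc16a1* held 3 matches at positions -200, -199 and 20 relative to the gene start (position 0), *Slco1c1* 2 at positions 19 and 20, and *Slc2a1* 1 at position -36. The matches of *Slc16a1* at -200 and -199 are the same CACGTG read on both strands, and so are those of *Slco1c1*. The TCF/LEF core CTTTGA, which beta-catenin partners bind, was in 0 of the 9 windows and in 16% of all windows. The ETS core CCGGAA, read by a family of endothelial transcription factors, was in 2 of the 9, both of *Slco2b1*, and in 14.9% of all. A match is a description of letters and not a binding site, and no match says only that the letters are absent from the window. The windows differed strongly in composition. That of *Slc16a1* was 73.7% G and C with 42 CpG sites and that of *Slc2a1* 65.3% with 18, whereas those of *Slco1a4* (40.7%) and *Slco1c1* (42.0%) held 1 CpG site each. The median of all windows was 52.7% and 7 CpG sites.

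In the contrast that took part in their choice, all 7 carriers had a higher level at P15 than at P6. For 5 of the 7 the ratio was at least 2, beside 7.25% of all 10972 genes with at least 50 UMIs. For 0 of the 7 it was at most 0.5, beside 5.79% of all genes. Since this contrast chose the members, nothing is read from these counts. The median ratio was 2.80 over the carriers and 1.09 over all genes. Scaling by TMM factors in place of total UMIs divided each ratio by 1.09 (0.13 on the log2 scale) and brought the median of all genes to 0.996. Without ribosomal and mitochondrial genes that median was 0.980, so the carriers' ratios are to be read against 1.09. All 7 ratios also stayed above 1 with that scaling, with ribosomal and mitochondrial genes left out of the totals, and with the mean over cells.

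**Figure D1:**
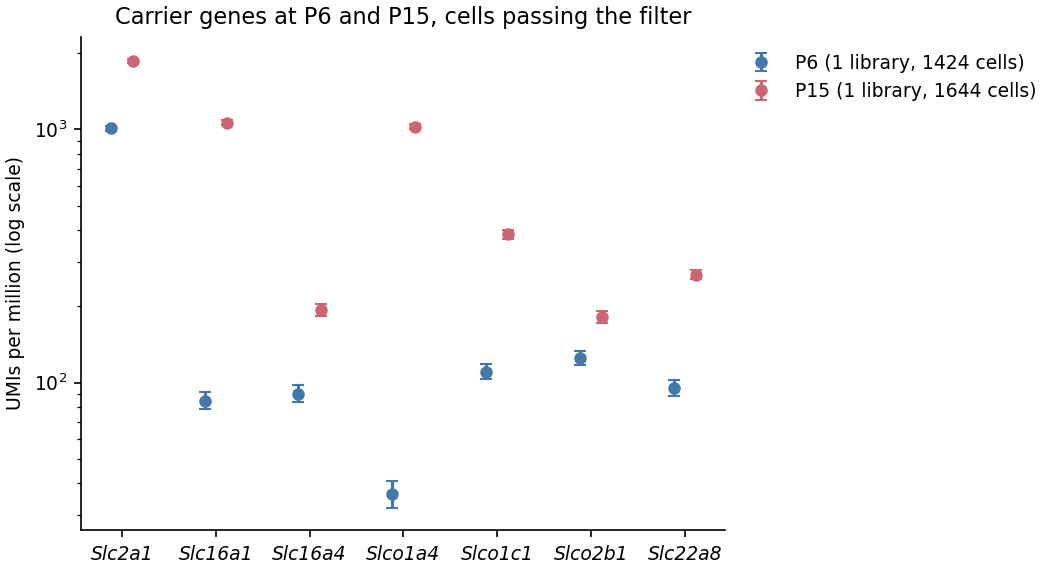
Level of each carrier in the P6 (blue) and P15 (red) library, in CPM on a log scale, over the 1424 and 1644 kept cells. Bars are exact 95% Poisson intervals, and every gene is higher at P15, least for *Slco2b1* (125 to 182) and most for *Slco1a4* (36.2 to 1027).

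**Figure D2:**
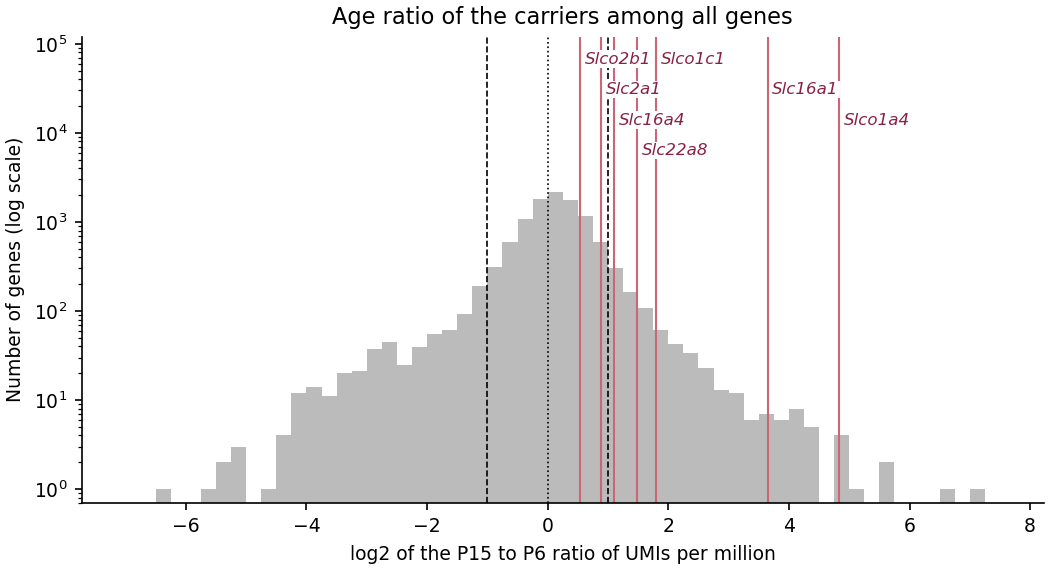
Histogram of the log2 P15 to P6 ratio over genes with at least 50 UMIs over both libraries and UMIs in each (gray, log scale), with the 7 carriers as red lines. The dotted line is a ratio of 1 and the dashed lines are ratios of 0.5 and 2; 5 carriers lie beyond the upper dashed line.

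Leaving out cells with markers of other types left the carriers higher at P15. Without the 55 P6 and 603 P15 cells that held a pericyte or mural UMI, the ratio was 29.2 for *Slco1a4* (95% interval 25.7 to 33.2) and 12.7 for *Slc16a1*. Without any cell holding a pericyte, mural, red blood cell, photoreceptor, neuron or glial UMI (*Glul* aside), 1038 P6 and 353 P15 cells remained. There the ratio was 34.3 for *Slco1a4* (29.3 to 40.5), 13.3 for *Slc16a1*, 3.78 for *Slco1c1*, 2.61 for *Slc22a8*, 2.23 for *Slc16a4*, 1.92 for *Slc2a1* and 1.27 for *Slco2b1* (1.08 to 1.49). Both selections were chosen after seeing that these markers differed with age.

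The glucose carrier *Slc2a1* encodes GLUT1, the main route of glucose across the endothelium of brain and retina. Its level was 1011.5 CPM at P6 (989.1 to 1034) and 1864 at P15 (1833 to 1895), from 7735 and 13736 UMIs. The ratio was 1.84 (1.79 to 1.89), rank 1032 of 10972 genes from the highest, just short of a fold of 2. With every barcode included it was 2.03. Most cells held the transcript at both ages. When each cell was thinned to 3000 UMIs, which kept 1245 P6 and 1163 P15 cells and left out 179 and 481 as too shallow, 86.0% of P6 cells and 96.6% of P15 cells had a UMI. Without thinning the shares were 93.8% and 96.3%. Thinned cells with at least 10 *Slc2a1* UMIs numbered 28 at P6 and 151 at P15.

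Barcodes of other cell types in the same libraries were read for the same shares. Free RNA, doublets and expression in these cells cannot be told apart here. At P15, 72 barcodes held more pericyte and mural than endothelial UMIs (median depth 4180.5 UMIs, against 4213.5 in the kept cells), of which 50 reached 3000 UMIs and 22 were too shallow. *Slc2a1* was found in 50% of these thinned barcodes (35.5 to 64.5%) and in 61.1% of all 72 unthinned. At P6, 63 barcodes held more neural than endothelial UMIs (median 4383, against 4985 in the kept cells), of which 47 reached the depth and 16 were too shallow. *Slc2a1* was found in 31.9% of these (19.1 to 47.1%) and in 57.1% of all 63. Both shares lie below those of the endothelial cells beyond their intervals. The P6 library had 7 pericyte barcodes and the P15 library 7 neural barcodes, too few to compare.

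The clusters of the study, named for their position in the vascular tree, differed in *Slc2a1*. At P6 it was highest in Cap-Arterial cells (1706 CPM, 1618 to 1797), followed by Capillary (1396), Arterial (1291), Venous (1192), Cap-Venous (1035), Stalk (910.9), Proliferative (764) and Tip cells (761), and was lowest in Primitive cells (543, 497 to 592). Among the 8 neighbouring pairs in that order, 4 had overlapping intervals. The steps from Cap-Arterial to Capillary, Cap-Venous to Stalk, Stalk to Proliferative and Tip to Primitive were larger than counting error. At P15, among the 6 clusters with at least 30 labelled cells, Cap-Arterial cells were again highest (2689, 2507 to 2880) and Tip cells lowest (1105, 986 to 1234). For each carrier, orders of P15 clusters are over these 6 only. Within a cluster, the age ratio of *Slc2a1* ran from 1.45 in Tip to 2.14 in Primitive cells, with intervals above 1 in 6 of 6 clusters.

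**Figure D3:**
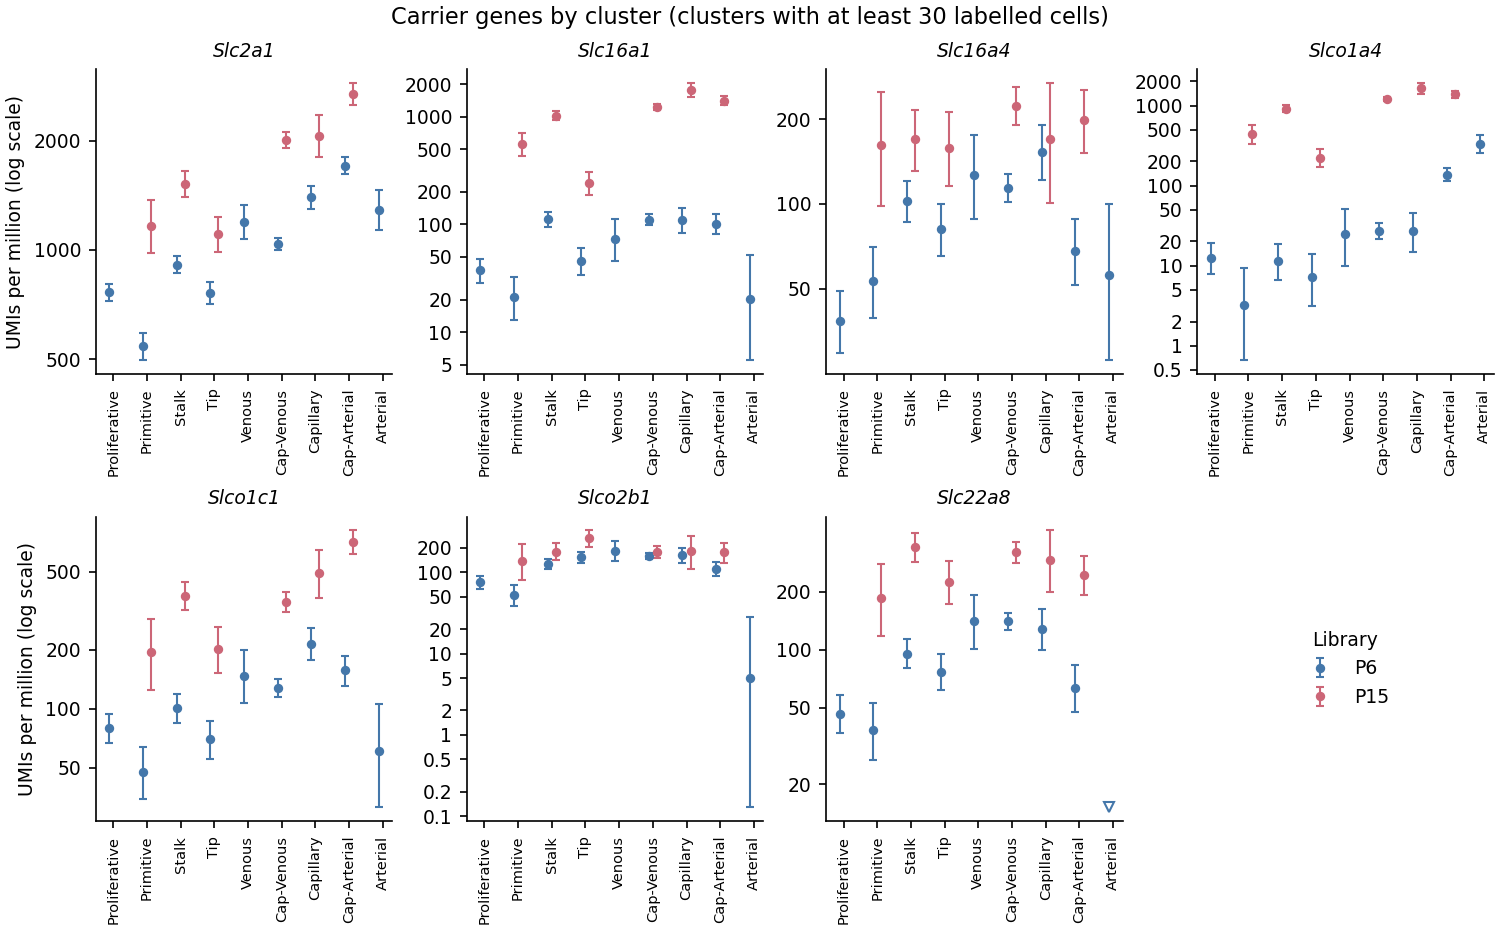
Level of each carrier by cluster in CPM (log scale, its own range in each panel), for P6 (blue) and P15 (red) clusters with at least 30 labelled cells; bars are exact 95% Poisson intervals. The open triangle marks 0 UMIs of *Slc22a8* in P6 Arterial cells at the upper limit that 3 counts give (15.2), and *Slco1a4* is the carrier that peaks in P6 Arterial cells (334).

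*Slc16a1* encodes MCT1, a proton-coupled carrier of lactate, pyruvate and ketone bodies. Its level was 85.0 CPM at P6 (78.6 to 91.8) and 1064 at P15 (1040.2 to 1087), a ratio of 12.5 (11.5 to 13.6) and rank 33 of 10972 genes. The share of thinned cells with a UMI was 15% at P6 and 72.7% at P15 (21.3% and 75.5% unthinned). It was 2.13% in P6 neural barcodes (7.94% unthinned) and 34.0% in P15 pericyte barcodes (34.7% unthinned). The P15 level in these pericyte barcodes was 198 CPM (153 to 253), below the 1064 in kept cells, so the P15 endothelial level and share were above those of the pericyte and mural barcodes.

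*Slc16a1* did not separate the P6 clusters step by step. Its level was highest in Stalk cells (113 CPM, 95.7 to 132), then Cap-Venous (110.5), Capillary (109), Cap-Arterial (102), Venous (73.8), Tip (45.6), Proliferative (37.6), Primitive (21.2) and Arterial cells (20.2 from 4 UMIs), and all 8 neighbouring pairs had overlapping intervals. At P15 the range was wider, from 1769 in Capillary cells (1524 to 2041) through Cap-Arterial (1407), Cap-Venous (1238), Stalk (1020) and Primitive (557) to Tip cells (243, 189 to 307). Of the 5 neighbouring pairs, Capillary with Cap-Arterial and Cap-Arterial with Cap-Venous cells overlapped there. Capillary cells were also the shallowest, with a median of 2268.5 UMIs. Thinned to 2000 UMIs, the 27 that remained were at 1444 CPM, against 1450 in Cap-Arterial and 1292 in Cap-Venous cells, so they were not highest at equal depth. The 11 P15 Arterial cells had 204 CPM (97.7 to 375), 0.145 of the Cap-Arterial level (0.0689 to 0.269). The age ratio was 5.33 in Tip cells (3.66 to 7.81), 9.06 in Stalk, 11.2 in Cap-Venous, 13.8 in Cap-Arterial, 16.2 in Capillary and 26.2 in Primitive cells (15.8 to 45.6).

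*Slc16a4* encodes a member of the same family whose substrates are less well known. Its level was 90.6 CPM at P6 (84.0 to 97.6) and 194 at P15 (184 to 204), a ratio of 2.14 (1.95 to 2.35) and rank 653. The ratio fell below 2 with TMM scaling (1.96), without ribosomal and mitochondrial genes (1.93) and with P15 clusters weighted by their P6 shares (1.90). A UMI was found in 22.2% of thinned P6 cells and 42.8% of thinned P15 cells (34.1% and 52.2% unthinned), against 2.13% of P6 neural (4.76% unthinned) and 8% of P15 pericyte barcodes (12.5% unthinned). Cluster levels ran from 38.2 in Proliferative to 153 in Capillary cells at P6 and from 158 in Tip to 224 in Cap-Venous cells at P15. All neighbouring pairs overlapped at both ages. In Capillary cells the age ratio was 1.11 (0.628 to 1.87), a difference not detectable at this depth, while the intervals lay above 1 in the other 5 of 6 clusters.

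*Slco1a4* encodes OATP1A4, a carrier of organic anions, steroid conjugates and drugs known from the blood-brain barrier. Its level was 36.2 CPM at P6 (32.1 to 40.7) and 1027 at P15 (1004 to 1051), from 277 and 7572 UMIs. The ratio of 28.4 (25.2 to 32.1) was rank 8 of 10972 genes. A UMI was found in 7.15% of thinned P6 cells (5.78 to 8.72%) and in 82.8% of thinned P15 cells (80.5 to 84.9%). Unthinned shares were 11% and 85.0%. In thinned P6 neural barcodes it was found in 0 of 47, which allows a share of up to 6.38%, and in 1.59% unthinned. In thinned P15 pericyte barcodes it was found in 14% (5.82 to 26.7%) and in 26.4% unthinned. The P15 share was thus far above that of the pericyte and mural barcodes, whereas the interval of the P6 share includes the 6.38% that the neural barcodes allow. By level, the unthinned P6 neural barcodes were at 1.84 CPM (0.0466 to 10.3) from 1 UMI, below the interval of the kept P6 cells.

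That small P6 share was not spread evenly over the vessels. At P6 *Slco1a4* was highest in Arterial cells (334 CPM, 258 to 425) and next in Cap-Arterial cells (136, 112 to 164). It was 27.4 in Cap-Venous (21.5 to 34.5), 26.8 in Capillary, 24.6 in Venous, 12.5 in Proliferative, 11.4 in Stalk, 7.15 in Tip and 3.19 in Primitive cells, the last from 3 UMIs. Arterial and Cap-Arterial cells differed from each other, and Cap-Arterial from Cap-Venous cells, beyond their intervals, and the other 6 neighbouring pairs overlapped. Thinned, 46.9% of Arterial cells (29.1 to 65.3%) and 21.1% of Cap-Arterial cells (14.5 to 29.0%) had a UMI, against 6.44% of Cap-Venous, 3.41% of Stalk and 1.29% of Primitive cells. The Arterial value rests on 66 UMIs in 40 cells, of which 8 were too shallow for thinning. Unthinned shares in these 5 clusters were 57.5%, 29.6%, 11.8%, 5.22% and 1.94%.

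At P15 the order of the clusters was different. *Slco1a4* was at its highest value in Capillary cells (1646 CPM, 1410.3 to 1909), then Cap-Arterial (1384, 1255 to 1523), Cap-Venous (1211, 1135 to 1292), Stalk (913), Primitive (436) and Tip cells (222, 170.4 to 284). The intervals of the highest 3 clusters overlapped in order, and each later step was larger than counting error. Capillary cells were the shallowest (median 2268.5 UMIs). Thinned to 2000 UMIs, the 27 that remained were highest again (1648 CPM, against 1408 in Cap-Arterial and 1144 in Cap-Venous cells). Thinned to 3000 UMIs, the 12 that remained were lowest of the 3 (1194, against 1321 and 1282), as were the 4 left at 4000 UMIs (875). The 11 Arterial cells had 876 CPM (634 to 1180.4), a ratio of 0.633 to Cap-Arterial cells (0.451 to 0.868), whereas at P6 that ratio was 2.45 (1.78 to 3.35). The 14 Proliferative cells had 431. Thinned shares at P15 were 91.5% in Cap-Venous, 92.3% in Cap-Arterial, 83.3% in Capillary, 80.6% in Stalk and 46.3% in Tip cells (97.8%, 95.6%, 88.1%, 83.5% and 58.7% unthinned). The share was lowest in Primitive cells, at 40% of the 15 that reached the depth (16.3 to 67.7%) and 52.8% unthinned.

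Within every cluster compared, *Slco1a4* was higher at P15. The age ratio in Cap-Arterial cells was 10.1 (8.23 to 12.6). In Tip cells it was 31 (14.8 to 74.9), in Stalk cells 80.2 (48.7 to 142), in Capillary cells 61.5 (35.7 to 115) and in Cap-Venous cells 44.2 (34.8 to 56.8). In Primitive cells, with 3 UMIs at P6, it was 137 (44.4 to 684). The Cap-Arterial interval did not overlap that of any of the other 5 clusters.

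**Figure D4:**
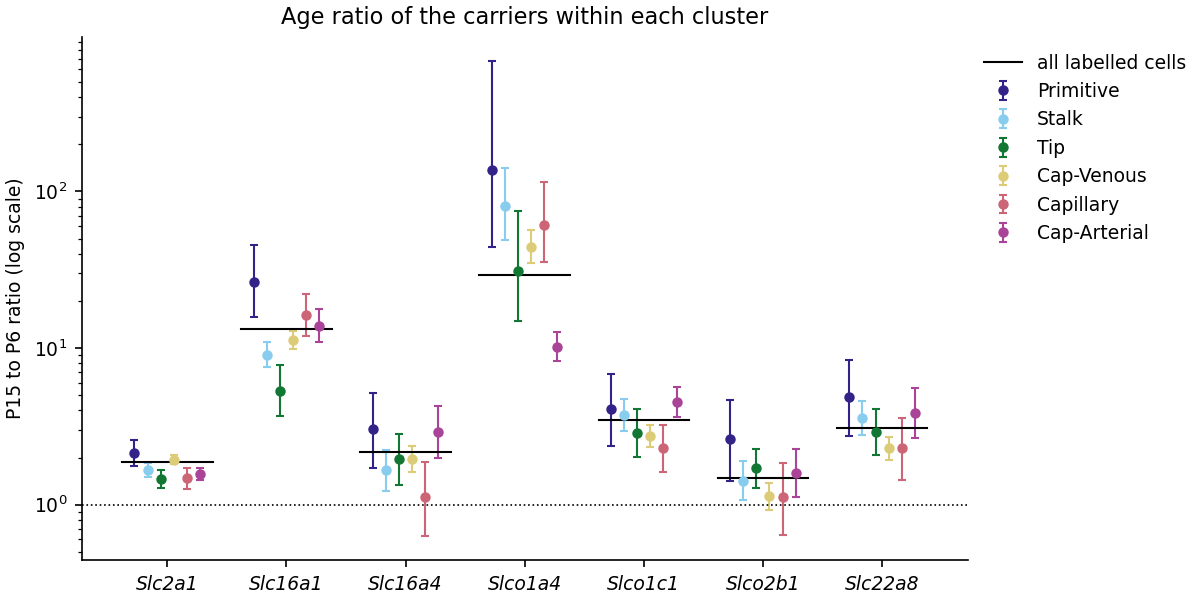
P15 to P6 ratio of CPM within 6 clusters (points, log scale) with exact conditional binomial 95% intervals, and over all labelled cells (black lines); the dotted line is a ratio of 1. All 42 points lie above 1, and for *Slco1a4* the Cap-Arterial point (10.1) is lower than the other 5.

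*Slco1c1* encodes OATP1C1, which carries thyroxine across the brain endothelium. Its level was 111 CPM at P6 (103 to 118) and 385 at P15 (371 to 399), a ratio of 3.48 (3.22 to 3.76) and rank 209. A UMI was found in 22.7% of thinned P6 and 52.8% of thinned P15 cells (32.6% and 63.1% unthinned), against 0 of 47 P6 neural barcodes (up to 6.38%; 1.59% unthinned) and 20.0% of P15 pericyte barcodes (22.2% unthinned). At P6 it was highest in Capillary cells (214, 176 to 258) and lowest in Primitive cells (47.8, 34.9 to 63.9), with all 8 neighbouring pairs overlapping. At P15 Cap-Arterial cells were highest (710.2, 618 to 812), followed by Capillary (492), Stalk (377), Cap-Venous (351), Tip (201) and Primitive cells (194), and the step from Cap-Venous to Tip was larger than counting error. The age ratio ran from 2.30 in Capillary to 4.53 in Cap-Arterial cells.

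*Slco2b1* encodes OATP2B1, a carrier of steroid sulfates and many drugs, and had the lowest age ratio of the 7 carriers. Its level was 125 CPM at P6 (117 to 133) and 182 at P15 (172 to 192), a ratio of 1.45 (1.34 to 1.58) and rank 2314. Thinned shares were 28.9% and 40.5% (44.0% and 49.5% unthinned), against 0 of 47 P6 neural barcodes (up to 6.38%, and 0 unthinned) and 10.0% of P15 pericyte barcodes (8.33% unthinned). At P6 Venous cells were highest (183, 137 to 240) and Arterial cells lowest, with 1 UMI in 40 cells (5.06, 0.128 to 28.2). The step from Primitive (52.0) to Arterial cells was larger than counting error and the other 7 pairs overlapped. At P15 it was highest in Tip cells (260.4, 204 to 327) and lowest in Primitive cells (137), with all 5 pairs overlapping. In Cap-Venous and Capillary cells no age difference was detectable at this depth, with ratios of 1.13 (0.928 to 1.38) and 1.12 (0.642 to 1.86).

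*Slc22a8* encodes OAT3, an exchanger of organic anions. Its level was 95.5 CPM at P6 (88.7 to 103) and 267 at P15 (256 to 279), a ratio of 2.80 (2.57 to 3.05) and rank 337. Thinned shares were 24.1% and 52.4% (31.7% and 59.0% unthinned), against 0 of 47 P6 neural barcodes (up to 6.38%; 1.59% unthinned) and 20.0% of P15 pericyte barcodes (26.4% unthinned). Arterial cells stood out by having none. No UMI was found in 40 Arterial cells at P6, which allows up to 15.2 CPM, nor in 11 Arterial cells at P15, which allows up to 61.1. At P6 the level was highest in Venous (141, 100.5 to 191) and Cap-Venous cells (140.2, 126 to 155), and only the step from Primitive (38.2) to Arterial cells was larger than counting error. Among the 6 P15 clusters with at least 30 labelled cells, Stalk cells were highest (342) and Primitive cells lowest (186), with all 5 pairs overlapping. The age ratio ran from 2.29 in Capillary to 4.86 in Primitive cells.

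**Figure D5:**
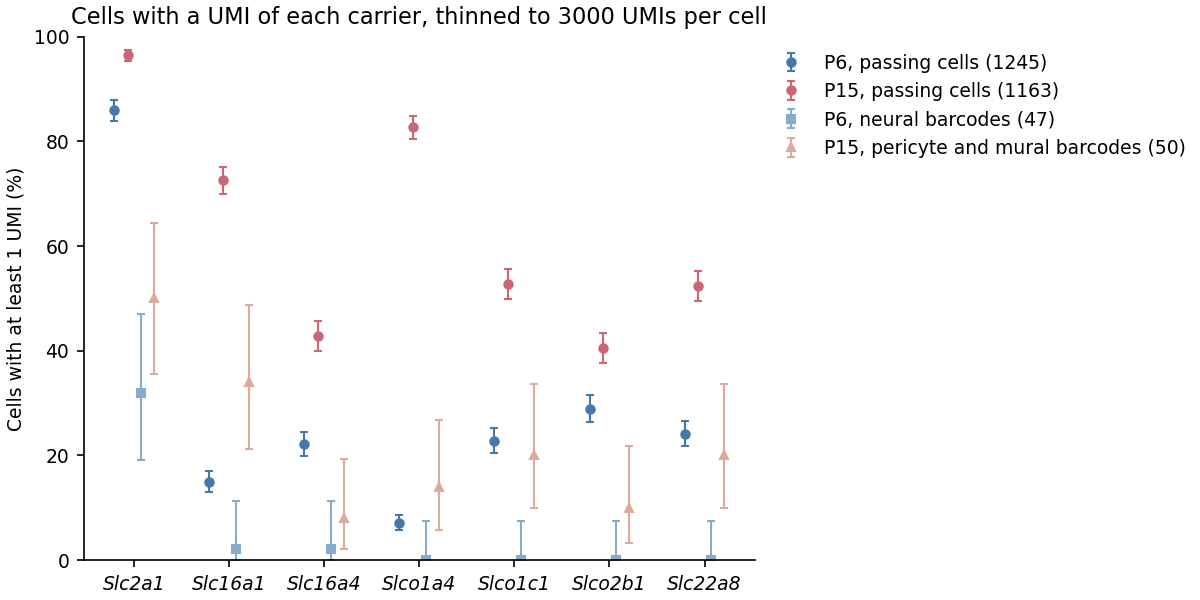
Share of cells with at least 1 UMI of each carrier after thinning to 3000 UMIs per cell, in 1245 P6 and 1163 P15 kept cells (circles), 47 P6 neural barcodes (squares) and 50 P15 pericyte and mural barcodes (triangles). Bars are exact Clopper-Pearson 95% intervals; the shares differ most for *Slco1a4*, from 7.15% to 82.8%.

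The arterial and the venous side of the capillary bed were compared within each library through the Cap-Arterial and Cap-Venous clusters. At P6, *Slco1a4* was 4.97-fold higher in Cap-Arterial cells (3.67 to 6.76), the 1 of 7 carriers past a fold of 2, beside 3.86% of 7100 genes. *Slc22a8*, with a ratio of 0.452 (0.333 to 0.604), was the 1 of 7 at or under 0.5, beside 2.48% of genes. *Slc2a1* (1.65), *Slc16a4* (0.599) and *Slco2b1* (0.696) differed by less than that fold with intervals that leave out 1, and the intervals of *Slc16a1* (0.920) and *Slco1c1* (1.22) included 1. In thinned cells the interval of *Slc16a4* also included 1 (0.723, 0.468 to 1.09). At P6, of the 4 SLCO and SLC22 carriers, *Slco1a4* was thus higher on the arterial side, *Slco2b1* and *Slc22a8* on the venous side, and *Slco1c1* on neither beyond its interval.

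At P15 the contrast was smaller beyond the intervals for *Slco1a4* and *Slc2a1*, and larger for *Slco1c1*. *Slco1c1* was 2.02-fold higher in Cap-Arterial cells (1.68 to 2.43), the 1 of 7 past the fold, beside 2.07% of 3720 genes, and 0 of 7 were at or under 0.5, beside 2.37%. That call is at the edge, since its ratio was 1.96 with predicted labels for all P15 cells, 1.75 in thinned cells and 1.95 without ribosomal and mitochondrial genes. *Slco1a4* had a ratio of 1.14 (1.02 to 1.28) and *Slc22a8* of 0.762 (0.579 to 0.992). The interval of *Slco1a4* reached below 1 in labelled cells that also passed the filter (1.10, 0.966 to 1.24), in thinned cells (1.09, 0.922 to 1.30) and without ribosomal and mitochondrial genes (1.10, 0.977 to 1.24). With predicted labels it lay above 1 (1.32, 1.25 to 1.40). The interval of *Slc22a8* reached above 1 in labelled cells that passed the filter (0.815, 0.613 to 1.07) and in thinned cells (0.810, 0.563 to 1.15). With predicted labels it lay below 1 (0.833, 0.733 to 0.944). *Slc16a1* had a ratio of 1.14 (1.01 to 1.28), with 1 included in thinned cells (1.01, 0.855 to 1.20) and without ribosomal and mitochondrial genes (1.09, 0.974 to 1.23). The intervals of *Slc16a4* (0.885) and *Slco2b1* (0.976) included 1. With predicted labels both lay below 1, for *Slc16a4* at 0.859 (0.740 to 0.995) and for *Slco2b1* at 0.671 (0.563 to 0.795). For *Slc2a1* the P15 ratio was 1.34 (1.23 to 1.46). For the other 4 carriers the intervals at P6 and P15 overlapped. In thinned cells those of *Slc2a1* and *Slco1c1* overlapped too, and only those of *Slco1a4* stayed apart. The medians over the 7 carriers were 0.920 at P6 and 1.14 at P15, beside 1.03 and 1.01 over all genes.

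Tip cells, at the growing front of the plexus, were compared with Cap-Venous cells. At P6, *Slco1a4* (0.261, 0.108 to 0.541) and *Slc16a1* (0.413, 0.300 to 0.557) were at or under 0.5, 2 of 7 beside 1.64% of 7270 genes, and 0 of 7 were past 2, beside 1.79%. At P15 the same 2 genes were under 0.5, *Slco1a4* at 0.183 (0.139 to 0.236) and *Slc16a1* at 0.196 (0.151 to 0.251), 2 of 7 beside 4.06% of 3622 genes, and 0 of 7 were past 2, beside 2.18%. With *Slco1c1* the number was 3 in thinned cells (0.380) and as means over cells (0.491). *Slco2b1* did not share this, with ratios of 0.966 (0.804 to 1.16) at P6 and 1.45 (1.08 to 1.94) at P15. The other 4 carriers lay between 0.544 and 0.735 at P6 and between 0.550 and 0.707 at P15, with intervals below 1. In thinned cells the interval of *Slc16a4* included 1 at P6 (0.843, 0.576 to 1.21) and at P15 (0.729, 0.416 to 1.22). The medians were 0.548 at P6 and 0.572 at P15, beside 1 and 0.995 over all genes.

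Proliferative cells were compared with Cap-Venous cells too. At P6 the ratios of the carriers ran from 0.332 (*Slc22a8*, 0.257 to 0.425) to 0.738 (*Slc2a1*, 0.690 to 0.789). Proliferative cells held more UMIs (median 7953.5 per cell against 5739 per Cap-Venous cell). Thinned to 3000 UMIs, *Slc22a8* was at 53.0 CPM in Proliferative and 156 in Cap-Venous cells, and *Slc2a1* at 786 and 1034, so the differences were also present at equal depth. The 14 Proliferative cells at P15 had ratios from 0.356 (*Slco1a4*, 0.259 to 0.477) to 0.758 (*Slc2a1*, 0.642 to 0.890). The interval of *Slco2b1* (0.664, 0.345 to 1.17) included 1. How many of all genes were lower in Proliferative cells was not counted, so these ratios are not read as particular to the carriers.

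Carriers were also counted together in single thinned cells. The median cell held UMIs of 2 of the 7 carriers at P6 and 5 at P15, and 0 of 1245 P6 cells against 60 of 1163 P15 cells held all 7. At P6, 83 cells held none, against 3 at P15. Of the 21 pairs, the largest excess over the product of both shares at P6 was for *Slc16a1* and *Slco1c1*, found together in 82 cells where the product gave 42.5. *Slc16a1* and *Slc22a8* were together in 82 cells against 45.1, and *Slco1a4* and *Slco1c1* in 32 against 20.2. *Slco1a4* and *Slc22a8* shared 13 cells where the product gave 21.4, a ratio of 0.606. At P15 the ratios for the 21 pairs lay between 0.989 and 1.11. For a gene found in most cells, as *Slc2a1* (96.6%) and *Slco1a4* (82.8%) were at P15, this ratio cannot lie far above 1. For pairs with either of these 2 genes, the narrower range at P15 is therefore not read as a change. Among pairs without them, the ratio of *Slco1c1* and *Slc22a8* was 1.55 at P6 and 1.10 at P15. That of *Slc16a1* and *Slc16a4* was 1.06 and 1.07. What lies behind these values was not tested.

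Across the 9 P6 and 6 P15 clusters, the genes whose log2 levels followed each carrier most closely were read from Pearson's r over these 15 points and 6595 genes. The points share 2 libraries and the age step between them, so r is a description. *Slc16a1* was closest to *Bsg* (0.981), which encodes basigin, the partner that brings MCT1 to the membrane, then to *Steap3* (0.949) and *Itm2a* (0.947). *Slco1a4* was closest to *Ptprb* (0.971), *St3gal6* (0.965) and *Cavin2* (0.963), and *Slco1c1* to *Ablim1* (0.957), *Dcun1d3* (0.951) and *Angptl4* (0.951). *Slc2a1* was closest to the drug efflux gene *Abcb1a* (0.946), *Efr3b* (0.944) and *Clstn1* (0.940), and *Slc16a4* to *Selenop* (0.926), *Cyp2d22* (0.910) and *AU021092* (0.898).

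*Slco2b1* and *Slc22a8* had the same closest genes, *Slc7a5*, which encodes an amino acid and thyroid hormone carrier (0.976 and 0.968), and *Rgcc* (0.967 and 0.967), and each was the next in the list of the other (0.965).

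The other genes of the 4 carrier families, and lists of partner and pathway genes, were read for the same age contrast. Over all genes, 7.25% were at least 2-fold higher at P15 and 5.79% at or under 0.5. By symbol, 53 genes of these families had a row in either table, 41 had one in both and 23 had at least 50 UMIs, a count that takes in *Slc2a4rg-ps*, a pseudogene of a regulator that shares only the letters of the name. Leaving out the 7 carriers, 2 of 16 were at least 2-fold higher at P15 (*Slc16a9*, 4.32 to 14 CPM, ratio 3.24, 2.17 to 4.95, and *Slc22a5*, 4.84 to 10.6, ratio 2.19, 1.46 to 3.33). *Slco2a1*, a prostaglandin carrier, was the 1 of 16 at or under 0.5, at 13.9 and 4.75 CPM (0.343, 0.227 to 0.506). *Slc22a5* was at 1.97 without ribosomal and mitochondrial genes. The median ratio of the 16 was 1.10, and 0.993 without ribosomal and mitochondrial genes.

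Among the other family genes with at least 100 UMIs, *Slc2a8* had a ratio of 1.45 (1.15 to 1.83). *Slc16a6* was at 0.767 (0.602 to 0.975), and *Slc16a13* (1.10), *Slc22a17* (1.11), *Slc22a15* (0.696), *Slco3a1* (0.731) and *Slc2a4rg-ps* (1.34) had intervals that included 1. *Slc2a3*, another glucose carrier, had 6 UMIs at P6 and 2 at P15. *Slc16a13* and *Slc22a17* fell to 0.990 and 0.995 without ribosomal and mitochondrial genes, so their direction depends on scaling. *Slc16a3*, which encodes the lactate carrier MCT4, had 30 and 21, and *Slc16a7* had 0 at both ages, which allows up to 0.392 CPM at P6 and 0.407 at P15.

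Partners and enzymes on which the carriers depend were read from a list of 7 genes, 6 of them with at least 50 UMIs. Only *Bsg* passed the fold, with 3934 CPM at P6 and 21726 at P15, a ratio of 5.52 (5.45 to 5.59). *Ldha*, for lactate dehydrogenase A, was at 579 and 714 (1.23, 1.19 to 1.28), *Hk1*, for a hexokinase, at 63.3 and 77.2 (1.22, 1.08 to 1.38), and *Txnip*, whose product lowers glucose uptake, at 92.6 and 111 (1.20, 1.08 to 1.33). *Ldhb* (1.12) and *Emb* (0.860) had intervals that included 1. The 3 ratios near 1.2 were 1.08 to 1.11 without ribosomal and mitochondrial genes.

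In thyroid hormone handling, 1 of 5 measured genes passed the fold upward and 1 downward. *Crym*, for a thyroid hormone-binding protein of the cytosol, was at 1.31 CPM at P6 and 20.1 at P15 (15.4, 8.12 to 32.7). *Slc7a8*, for an amino acid carrier that also takes thyroid hormone, was at 27.1 and 8.82 (0.326, 0.243 to 0.432). *Slc7a5* had a ratio of 1.45 and *Thra*, for the alpha receptor, of 1.35. The deiodinase gene *Dio2* had 2 UMIs at P6 and 1 at P15, and *Dio3* had no row in both tables.

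Of 14 measured genes of Norrin and Wnt signalling, 2 were at least 2-fold higher at P15, *Nkd1* (2.12, 1.82 to 2.46) and *Sox17* (2.05, 1.94 to 2.16), and 0 were at or under 0.5. Neither passed with TMM scaling, where they were at 1.93 and 1.87. The receptor gene *Fzd4* had a ratio of 1.52, its co-receptor gene *Lrp5* 0.922 (0.731 to 1.16), *Tspan12* 1.35, *Lef1* 1.54 and the feedback gene *Axin2* 0.844 (0.612 to 1.16). The ratio of *Lrp5* was 1.03 as a mean over cells. The median of the list was 1.39. Among 12 measured barrier genes, *Abcc4* (2.48), *Abcb1a* (2.07) and *Ocln* (2.06) were past 2 and *Plvap*, a marker of fenestrated endothelium, was at 249 CPM at P6 and 14.2 at P15 (0.0572, 0.0465 to 0.0696). With TMM scaling *Abcb1a* and *Ocln* were at 1.89. Below 1 with their intervals were *Slc7a1* (0.689, 0.657 to 0.722), *Tjp1* (0.827, 0.757 to 0.903) and *Slc38a5* (0.910, 0.876 to 0.945). The median of the barrier list was 1.07. The lipid carrier gene *Mfsd2a* was at 1.02 (0.974 to 1.07) and 0.932 with TMM, and *Abcg2* (1.09) and *Slc3a2* (1.05) also fell below 1, to 0.997 and 0.959. Of the genes for receptors of foreign compounds and for nuclear receptors, *Ahr* was at 6.41 and 0.95 CPM (0.148, 0.0566 to 0.329) and *Rxra* had a ratio of 1.51. *Nr1i3* had 0 UMIs at P6 and 2 at P15, and *Nr1i2* had no row in both tables.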

How the data were processed

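The authors deposited counts, the number of UMIs of each gene (Ensembl ID) in each cell barcode, without normalization, for 1 library of P6 and 1 of P15 retinal endothelial cells. The submitters' processing notes give mm10 and Seurat 3.0. The aligner and counter are not given in the sources used here. IDs were matched to symbols, summing those that share 1 symbol. UMIs without a symbol were 0.0145% of all at P6 and 0.0146% at P15 and were left out. Cluster names are those of the study's source data, where Primordial is called Primitive and Primordial-Proliferative is called Proliferative as in its text.

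The 7 carriers and all lists were chosen with earlier results of these data known. Genes named are the 7 carriers, family genes with at least 100 UMIs over both libraries, genes of the partner and pathway lists, the 3 genes with the highest r over clusters for each carrier, and cell type markers. Family genes below that number (*Slc2a3*, *Slc16a3*, *Slc16a7*, and neighbours of carriers) and genes overlapping carriers were named after their values were seen.

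With 1 library per age no test over samples was made. Exact intervals are at 95%, and a count of 0 was bounded with 3 counts. A fold of 2 was used over genes with at least 50 UMIs. Cells were thinned to 3000 UMIs by a seeded draw without replacement. Barcodes of other cell types were unlabelled and held at least 5 UMIs of the pericyte and mural list or of the photoreceptor and neuron lists, and more of these than of the endothelial list. Pearson's r used log2 of the level plus 1 over genes with at least 200 UMIs in labelled cells. Alternatives were every barcode, labelled cells, leaving out cells that held *Xist* together with Y-linked UMIs, thinning, TMM factors, totals without ribosomal and mitochondrial genes, means over cells, P15 clusters weighted by P6 shares, labels predicted from 15 neighbours on 13 principal components of 4492 genes, minimums of 10 and 200 UMIs, and thinning to 2000 and 4000 UMIs. Leaving out cells with markers of other types was added after the marker levels were seen. The ratio step was first run on drawn counts with 200 genes set to a known fold.

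Tools were Python 3.11.15, numpy 2.4.6, scipy 1.17.1, pandas 2.3.3, scikit-learn 1.9.0, matplotlib 3.10.9, and edgeR 4.0.16 in R 4.3.3 for TMM.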

Additional observations from a re-analysis of the deposited data

How the results depend on the processing

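The P15 to P6 ratio of each of the 7 carriers stayed above 1 under each of 10 alternatives. Of these values, 43 stayed within the interval of the value given above and 27 left it, and the cause was not tested. With every barcode, *Slc2a1* was at 2.03, *Slc16a1* at 15.6, *Slc16a4* at 2.43, *Slco1a4* at 33.7, *Slco1c1* at 4.05, *Slco2b1* at 1.64 and *Slc22a8* at 3.41. With TMM, which divides all ratios alike, *Slc2a1* was at 1.69, *Slc16a1* at 11.4, *Slco1c1* at 3.18, *Slco2b1* at 1.33 and *Slc22a8* at 2.56. Without ribosomal and mitochondrial genes, which took 21.7% of UMIs at P6 and 12.9% at P15, *Slc2a1* was at 1.66, *Slc16a1* at 11.3, *Slc16a4* at 1.93, *Slco1c1* at 3.13, *Slco2b1* at 1.31 and *Slc22a8* at 2.52. As means over cells, *Slc2a1* was at 1.73 and *Slco1a4* at 24.8. With P15 clusters weighted by P6 shares, where the Venous cluster has 2 P15 cells in the cut list, *Slc16a4* was at 1.90 and *Slco1c1* at 2.97. In labelled cells *Slc22a8* was at 3.09. Chosen after seeing the data, the selection without cells holding markers of other types gave 1.92 for *Slc2a1*, 34.3 for *Slco1a4*, 3.78 for *Slco1c1* and 1.27 for *Slco2b1*. The number of carriers past a fold of 2 was 4 with TMM and without ribosomal and mitochondrial genes, 6 with every barcode and 5 in the other cases counted, which leave out the weighted clusters. Beside these counts, 5.62% of all genes were past that fold with TMM, 5.41% without ribosomal and mitochondrial genes and 7.85% with every barcode. In the other cases it was 6.99% (means over cells) to 9.09% (without cells holding markers of other types).

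The share of all genes at least 2-fold higher was 11.4% with a minimum of 10 UMIs and 5.63% with 200, and of those at or under 0.5 it was 8.23% and 3.98%. Of the Cap-Arterial to Cap-Venous ratios, 60 stayed within their intervals and 3 did not, all with predicted labels at P15 (*Slc2a1* 1.21, *Slco1a4* 1.32, *Slco2b1* 0.671). The number past a fold of 2 at P15 was 0 with predicted labels, in thinned cells and without ribosomal and mitochondrial genes. Of the Tip to Cap-Venous ratios, 33 stayed and 2 did not (*Slco1a4* 0.277 with predicted labels, *Slco1c1* 0.380 in thinned cells, both at P15). No ratio changed direction beyond its interval. Shares of cells left their intervals in 25 cases and stayed in 3 at 2000 or 4000 UMIs, lower at the shallower and higher at the deeper setting.

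P15 labels covered 438 cells because the copy of the label list was cut, with 11 Arterial, 14 Proliferative and 2 Venous cells. Predicted labels were right for 80.8% of held-out P15 cells, but for 54.5% of Arterial and 0 of 2 Venous cells. How UMIs of related or overlapping genes were assigned is not known. With 1 library per age, no spread between animals is known.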
